A study of Rattus norvegicus with 20 samples.

Results

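Heat shock proteins and the chaperones of the endoplasmic reticulum (ER) were followed in rat vocal folds before and after injury. The members were all probe sets whose annotated gene symbol began with Hspa, Hspb, Hspd, Hspe, Hsph, Hsp90, Dnaja, Dnajb, Dnajc or Pdia, together with Hyou1, Sdf2l1, Creld2, Herpud1, Ddit3, Atf4 and Hsf1. A probe set is the group of probes on an array that reads 1 transcript. Of the 15049 probe sets with a single gene symbol, 78 met the rule, 1 for each of 78 genes, and all 78 matched a rat RefSeq gene with the same symbol. Hspbp1 and Hspbap1 encode proteins that bind heat shock proteins and entered through their symbols alone. Dnaja1, Dnajb1, Hspa1b and Manf were not analysed here.

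RNA came from the vocal folds of 20 young adult male Sprague-Dawley rats, with 1 array per animal. The groups, of 5 animals each, were an uninjured control and 3 groups killed 1, 4 or 8 weeks after surgical removal of the lamina propria, the connective tissue that covers the thyroarytenoid muscle. The methods describe injury of 1 or both sides, while both folds were dissected according to the labels, so that an injured sample may hold an uninjured fold. Values are the deposited log2 signals of robust multichip analysis (RMA), on which a difference of 1 is a 2-fold change. Limma was fitted to all 20 arrays, Benjamini-Hochberg adjustment of the p-values ran over the 15049 probe sets, and a gene was called where the adjusted p was below 0.05.

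Chaperones bind proteins that are not yet folded or have lost their fold. HSP70 proteins work with J-domain partners (the Dnaj genes), which bring them clients and trigger ATP hydrolysis, and with HSP110 proteins, which exchange their nucleotide, while HSP90 completes the folding of kinases and receptors and the small heat shock proteins hold unfolded proteins until HSP70 takes them over. Heat shock factor 1 (Hsf1) drives the cytosolic genes through heat shock elements, and the unfolded protein response drives the ER genes through ER stress response elements. In muscle, small heat shock proteins guard the contractile apparatus, and cells that secrete much protein, such as gland cells, plasma cells and matrix-forming fibroblasts, hold large amounts of ER chaperones.

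Promoter sequences are shown for members in which a search found recognition elements of these pathways, a description that does not depend on the arrays. RefSeq promoters (build GRCr8) were matched for 63 of the 78 members, and the 250 bases before the transcript start on which RefSeq's promoter window is set were searched on both strands. The other 15 members were not searched, and members without a match are assigned to neither pathway. For Herpud1, Creld2 and Hspd1 that start lies inside the annotated span of the gene, so that their windows do too. The ER stress response element (ERSE, CCAAT and CCACG with 9 bases between them) was found for Hspa5, Hsp90b1, Dnajc3 and Creld2, and in 0.076% of 27457 promoters. A related element (ERSE-II, ATTGG and CCACG with 1 base between them) was found for Herpud1 and Hyou1, and in 0.044% of promoters. A heat shock element of 3 units (GAA, TTC and GAA, or TTC, GAA and TTC, with 2 bases between units; the 2 forms can overlap) was found for Hspa8, Hsph1, Hspd1 and Hspe1, and in 0.597% of promoters. A match is a description of the letters and not a tested site. In the sequences below, read from 5′ to 3′ on the strand of the gene, capitals mark the matched element, which can lie in either orientation.
Hspa5 (chr3:38452961-38453003, plus strand): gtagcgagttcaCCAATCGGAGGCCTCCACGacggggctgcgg
Hsp90b1 (chr7:23012335-23012481, minus strand): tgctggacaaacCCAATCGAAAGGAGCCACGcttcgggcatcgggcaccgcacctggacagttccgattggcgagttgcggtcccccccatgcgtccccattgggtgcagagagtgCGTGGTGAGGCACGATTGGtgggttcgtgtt
Dnajc3 (chr15:102432522-102432564, plus strand): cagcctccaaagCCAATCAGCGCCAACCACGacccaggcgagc
Creld2 (chr7:121789227-121789269, plus strand): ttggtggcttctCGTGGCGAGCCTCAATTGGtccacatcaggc
Herpud1 (chr19:10614809-10614843, minus strand): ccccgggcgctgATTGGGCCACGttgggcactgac
Hyou1 (chr8:53602682-53602816, plus strand): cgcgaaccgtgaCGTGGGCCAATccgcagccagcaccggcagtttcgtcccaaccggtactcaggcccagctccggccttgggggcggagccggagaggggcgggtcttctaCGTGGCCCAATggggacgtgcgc
Hspa8 (chr8:50080289-50080483, plus strand): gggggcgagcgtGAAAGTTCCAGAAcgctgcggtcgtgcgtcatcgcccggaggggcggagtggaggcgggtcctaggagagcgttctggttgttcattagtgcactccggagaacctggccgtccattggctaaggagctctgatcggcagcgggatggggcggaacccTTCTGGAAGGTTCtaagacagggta
Hsph1 (chr12:10427320-10427356, plus strand): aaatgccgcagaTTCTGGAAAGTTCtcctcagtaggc
Hspe1 (chr9:64084250-64084291, plus strand): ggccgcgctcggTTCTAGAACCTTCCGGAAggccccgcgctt
Hspd1 and Hspe1 encode the 2 proteins of the mitochondrial chaperonin, lie head to head, and share the pair of overlapping elements printed for Hspe1. Hsp90b1, Hyou1 and Hspa8 each held 2 separate elements.

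The arrays differed in ways that bear on these genes. Control replicate 3 had an array median of 4.58 against 4.87 to 4.94 in the other controls, and it was the lowest of all 20 arrays for 39 of the 78 members (50%), against 29.2% of all tested probe sets. Hybridization control probe sets averaged 8.62 to 9.39 in the controls and 9.74 to 10.27 in the injured animals, without overlap. A technical difference between these arrays, of unknown origin, and the injury therefore cannot be told apart. Above the 95th percentile of the array's intron control probe sets lay 19 members on all 20 arrays and 34 on none. By this cut the signal of the latter cannot be separated from background. A looser cut, the median of the intron controls, was not exceeded by 8 members on 10 or more arrays. Among these 34 were Hspa1a, Ddit3 and Hspb3. So were Dnajb3, Dnajb8, Dnajc12, Dnajc27, Dnajc30, Hspa12a and Pdia2, each called in at least 1 fit below. Among genes called below, Dnajb5 and Dnajc10 lay above it on 1 array each, Hsf1, Dnajb9 and Sdf2l1 on 2 each and Dnajc21 on 3, so that their signals too were mostly within the range of the intron controls. Tissue markers (lists of genes typical of a cell type) were read as means of log2 signal, none of which is 0. The 10 skeletal muscle markers averaged 8.21 to 10.42 in controls, 9.32 to 9.63 at 1 week, 8.74 to 9.84 at 4 weeks and 7.22 to 10.02 at 8 weeks. The 8.21 was control replicate 3, and the other controls averaged 9.62 to 10.42. With all arrays, limma called 0 of the 10 at any time, with 0 at an unadjusted p below 0.05. Calls of these markers without control replicate 3 were not examined, so a steady muscle content cannot be read from this. Of 7 anterior pituitary markers, which vocal folds should lack, 3 were lower at each time. Over all tested probe sets, 10.2%, 5.46% and 4.65% were lower at 1, 4 and 8 weeks. The mean of the 7 markers was 5.06 to 6.75 in controls against 3.53 to 4.40 in the injured animals.

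Most chaperone genes were not called after injury, and the shares of members that were called lay near or below those of all tested probe sets. Against control, limma called 4 members higher and 8 lower at 1 week, where 11.2% of all tested probe sets were higher and 10.2% lower (5.13% and 10.3% of members). At 4 weeks, 3 members were higher and 2 lower, beside 7.52% and 5.46% of all probe sets. At 8 weeks, 3 were higher and 3 lower, beside 6.96% and 4.65%. The members' median log2 difference was -0.08, 0.02 and -0.01 at 1, 4 and 8 weeks, beside medians of 0.02, 0.04 and 0.04 over all tested probe sets. These comparisons share the control animals. The genes called at all 3 times were Hspb6 and Dnajb5, which were lower, and Sdf2l1 and Dnajc7, which were higher.

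Without control replicate 3, the picture shifted toward lower calls. Limma then called 1 member higher and 19 lower at 1 week (background 9.49% and 16.9%), 1 and 12 at 4 weeks (5.99% and 11.3%), and 1 and 13 at 8 weeks (5.63% and 10%). Of the calls made with all arrays, 9 of 12, 3 of 5 and 4 of 6 were shared. The calls lost were those of Dnajc7 at each time, Sdf2l1 at 1 and 8 weeks, Dnajc15 at 1 week and Dnajb8 at 4 weeks, and every call gained was lower. Besides genes described below, the gained calls were Dnaja2, Dnajc27 and Hspa12a at 1 week and Dnaja4 at 4 weeks. Dnajc27 and Hspa12a lay above the 95th percentile of the intron control probe sets on 0 of 20 arrays.

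**Figure D1:**
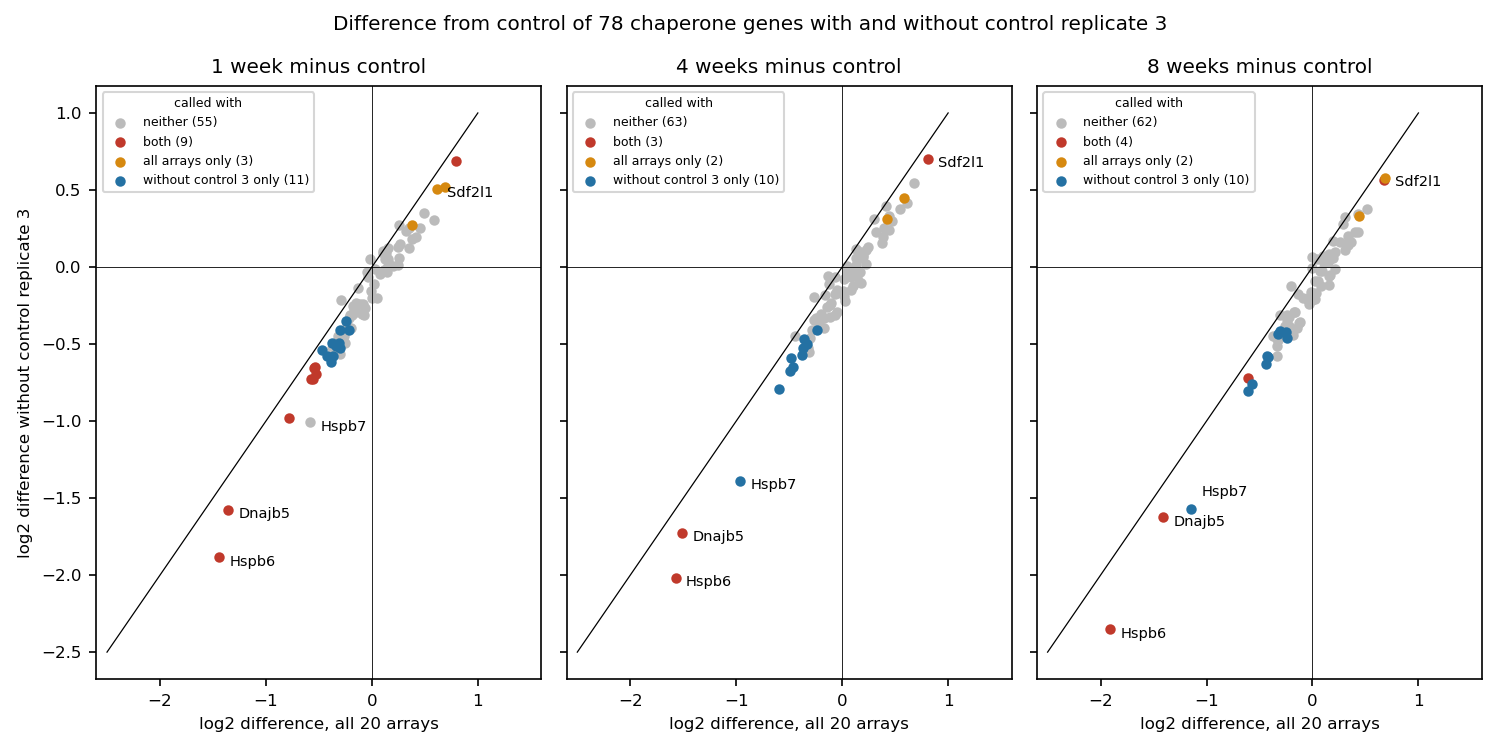
Log2 difference from control of the 78 members with all 20 arrays (horizontal axis) and without control replicate 3 (vertical axis), in 1 panel per time after injury, with 1 point per gene, colours for the fits that called it (limma, adjusted p below 0.05) and a line of equal values. Nearly all points lie under the line, Hspb6 and Dnajb5 stand far to the lower left in each panel, and 11, 10 and 10 genes were called only without this array at 1, 4 and 8 weeks.

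Small heat shock proteins showed the largest drop of any member, in a single gene. Hspb6 (also known as HSP20), a small heat shock protein abundant in striated and smooth muscle, lies at chr1:94934372-94936516 (GRCr8). Its log2 signals in control replicates 1 to 5 were 9.77, 10.27, 8.18, 10.65 and 10.93. At 1 week they were 8.92, 8.70, 8.51, 8.21 and 8.26, at 4 weeks 8.03, 7.68, 8.70, 9.11 and 8.42, and at 8 weeks 8.90, 7.78, 6.71, 8.11 and 8.77. All controls other than replicate 3 lay above every injured animal, while control replicate 3 lay among the injured animals, so that the groups overlapped through that array alone. Means were 9.96 ± 1.09 (SD, n = 5) without injury and 8.52 ± 0.30, 8.39 ± 0.56 and 8.05 ± 0.88 after 1, 4 and 8 weeks. By limma, Hspb6 fell, with differences of -1.44 (SE 0.42, adjusted p = 0.0179) at 1 week, -1.57 (SE 0.42, adjusted p = 0.017) at 4 weeks and -1.91 (SE 0.42, adjusted p = 0.00632) at 8 weeks. The 1-week call was lost without control replicate 4 and held without any other array. In bulk tissue, fewer cells of a type and less RNA per cell cannot be told apart.

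The other 6 small heat shock proteins were not called with all arrays, so that 1 of 7 was lower at each time, where 10.2%, 5.46% and 4.65% of all tested probe sets were lower at 1, 4 and 8 weeks. Hspb7, a small heat shock protein of heart and skeletal muscle, differed by -0.58 (95% interval -1.47 to 0.30) at 1 week, -0.96 (95% interval -1.85 to -0.08) at 4 weeks and -1.15 (95% interval -2.03 to -0.26) at 8 weeks. Without control replicate 3 it fell, with differences of -1.39 (adjusted p = 0.0162) at 4 weeks and -1.57 (adjusted p = 0.00895) at 8 weeks in limma, and was not called at 1 week (adjusted p = 0.0549). Hspb1 (HSP27), which binds actin filaments and is found in most tissues, differed by -0.25 (95% interval -0.81 to 0.31), -0.31 (95% interval -0.87 to 0.25) and -0.34 (95% interval -0.89 to 0.22), or -0.49, -0.55 and -0.58 without control replicate 3 at the 3 times. Hspb2, Hspb3 and Hspb8 were named after their values were seen. Hspb2 and Hspb3 form a complex in muscle and Hspb8 works with the co-chaperone Bag3, and at 1 week their means were above control, by 0.59, 0.26 and 0.42 log2 units, with limma adjusted p of 0.166, 0.595 and 0.231. Leaving out control replicate 3 lowered these differences to 0.31, 0.06 and 0.19. The median over the 7 genes was -0.18, -0.31 and -0.34 at 1, 4 and 8 weeks.

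Animals of 1 group differed widely in these genes, and their order followed the muscle markers in 3 of the 4 groups. The median within-group SD of the 7 small heat shock proteins was 0.530 log2 units, against 0.272 over all tested probe sets and 0.305 over the members. In the controls, replicate 5 was highest for 7 of 7 (27.6% of all tested probe sets) and replicate 3 lowest for 7 of 7 (62.1%). At 4 weeks, replicate 4 was highest for 5 (21.3% of all tested probe sets) and replicate 2 lowest for 5 (28.4%). At 8 weeks, replicate 1 was highest for 6 (18.3%) and replicate 3 lowest for 6 (17.7%). Ordered by the mean of the 7 genes, the controls ran 5, 4, 2, 1, 3, the 4-week animals 4, 3, 5, 1, 2 and the 8-week animals 1, 5, 2, 4, 3, each the same order as by the mean of the 10 muscle markers. At 1 week the muscle markers spanned only 9.32 to 9.63 and the orders differed. Within-group SDs of 0.78 for Hspb7 and 0.77 for Hspb6 were the largest among the members. The part of muscle content in the fall of Hspb6 was not tested. The muscle markers' median difference was -0.20, -0.33 and -0.49 at the 3 times with all arrays, control replicate 3 included.

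**Figure D2:**
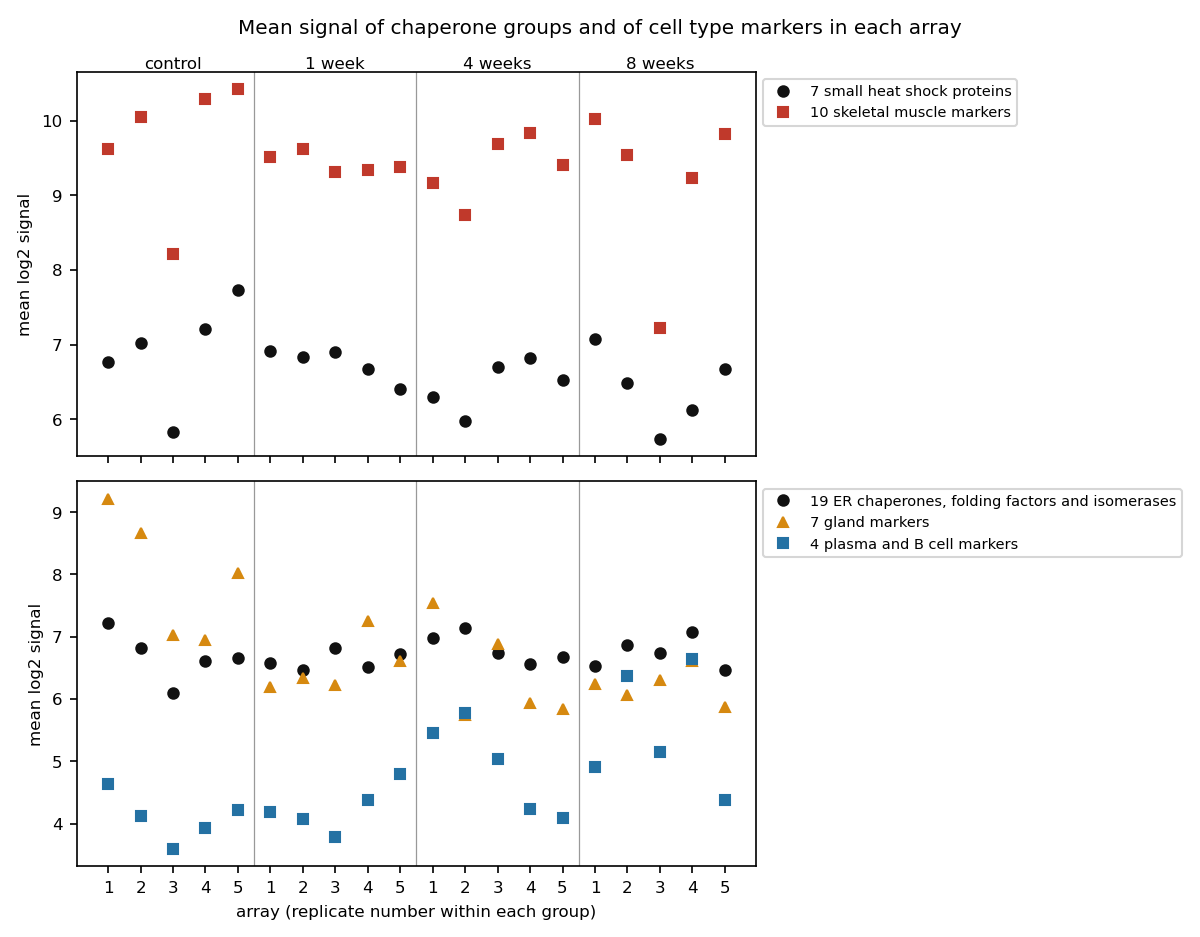
Mean log2 signal (vertical axis) in each of the 20 arrays (horizontal axis, replicate numbers within each group) of 7 small heat shock proteins beside 10 skeletal muscle markers (upper panel) and of 19 ER members beside 7 gland markers and 4 plasma and B cell markers (lower panel). Small heat shock proteins and muscle markers are both lowest in control replicate 3, 4-week replicate 2 and 8-week replicate 3, and the ER members are highest in control replicate 1, 1-week replicate 3, 4-week replicate 2 and 8-week replicate 4.

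Among the J-domain proteins of the cytosol, nucleus and vesicles, 2, 2 and 2 of 25 were higher and 2, 1 and 1 lower at 1, 4 and 8 weeks (all tested probe sets: 11.2%, 7.52% and 6.96% higher, 10.2%, 5.46% and 4.65% lower). Without control replicate 3 the counts were 1, 0 and 1 higher and 6, 5 and 4 lower (background 9.49%, 5.99% and 5.63% higher, 16.9%, 11.3% and 10% lower). Dnajb5 (also known as HSC40), a J-domain partner of cytosolic HSP70 that in mouse heart takes part in the redox control of histone deacetylase 4, lies at chr5:61972637-61981887. Its signals were 5.84, 6.41, 5.29, 6.14 and 7.11 in the controls. The 1-week animals had 4.89, 4.74, 5.37, 4.19 and 4.79, the 4-week animals 4.54, 4.44, 4.58, 4.82 and 4.86 and the 8-week animals 4.87, 5.18, 3.54, 4.72 and 5.42. Every 4-week animal lay below every control, and at 1 and 8 weeks 1 injured animal each exceeded control replicate 3 and no other control. Dnajb5 fell, with differences of -1.36 (SE 0.31, adjusted p = 0.0034) at 1 week, -1.51 (SE 0.31, adjusted p = 0.00308) at 4 weeks and -1.41 (SE 0.31, adjusted p = 0.00588) at 8 weeks in limma, calls that held when any 1 array was left out. Its signal exceeded the 95th percentile of the intron control probe sets on 1 of 20 arrays, a control, and on no array of an injured animal.

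Dnajc7 (TPR2), a J-domain protein with tetratricopeptide repeats that binds both HSP70 and HSP90, was higher at all times by a small amount. Control signals were 7.86, 7.47, 7.13, 7.63 and 7.78, and the injured animals ran from 7.66 to 8.12. It rose by 0.38 (SE 0.13, adjusted p = 0.04), 0.42 (SE 0.13, adjusted p = 0.0372) and 0.44 (SE 0.13, adjusted p = 0.0316) at 1, 4 and 8 weeks in limma. Control replicate 3 was the lowest array, and without it the adjusted p was 0.082, 0.0628 and 0.0519, so that no call remained. The calls held in 13, 13 and 14 of 20 fits that left out 1 array. Dnajb3 and Dnajb8, J-domain proteins known mainly from testis, lay near background. Dnajb3 rose from 2.84 ± 0.30 (SD, n = 5) to 3.64 ± 0.14 at 1 week and 3.52 ± 0.30 at 8 weeks (limma adjusted p = 0.00205 and 0.0122), and Dnajb8 from 3.11 ± 0.39 to 3.69 ± 0.17 at 4 weeks (adjusted p = 0.0324). The call of Dnajb8 was not made without control replicate 3 (adjusted p = 0.0658), and it held in 14 of 20 fits that left out 1 array. The background probe sets moved in the same direction, with array medians of 1.93 to 2.12 in controls and 2.32 to 2.91 in injured animals, and their part in these calls was not tested. Dnajc21, whose product acts in ribosome maturation, fell, with a difference of -0.57 (SE 0.19, adjusted p = 0.0343) at 1 week, a call that held in 15 of 20 fits that left out 1 array. When control replicate 3 was left out it fell at all times, with differences of -0.73 (adjusted p = 0.00467), -0.52 (adjusted p = 0.0436) and -0.58 (adjusted p = 0.0295). The J-domain genes Dnajc12, whose product in humans assists the folding of aromatic amino acid hydroxylases, and Dnajc18 were not called in the fit of all arrays as deposited and were lower at all times without that array. Their differences were -0.51 (adjusted p = 0.00694), -0.50 (adjusted p = 0.0131) and -0.58 (adjusted p = 0.00547) for Dnajc12, and -0.41 (adjusted p = 0.0426), -0.57 (adjusted p = 0.0113) and -0.63 (adjusted p = 0.00677) for Dnajc18. Dnajc12 lay above the 95th percentile of the intron control probe sets on 0 of 20 arrays.

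Of 10 cytosolic HSP90, HSP70 and HSP110 members, 2 were lower at 1 week (10.2% of all tested probe sets were), Hsp90ab1 and Hspa4. Hsp90ab1, the constitutive HSP90, had control signals of 10.26, 10.35, 9.41, 10.17 and 10.29. The 1-week animals had 9.59, 9.43, 9.71, 9.43 and 9.53, the 4-week animals 9.92, 9.59, 9.74, 10.02 and 10.03 and the 8-week animals 9.81, 9.77, 9.65, 10.03 and 9.97. Every injured animal lay below the 4 controls other than replicate 3, which was the lowest of the 20 arrays. The gene fell, with a difference of -0.56 (SE 0.16, adjusted p = 0.0139) at 1 week in limma, in every fit that left out 1 array, and was not called at 4 weeks, -0.23 (95% interval -0.56 to 0.09), or 8 weeks, -0.25 (95% interval -0.57 to 0.07). Without control replicate 3 it was called at all times, with differences of -0.73 (adjusted p = 0.000226), -0.41 (adjusted p = 0.0235) and -0.42 (adjusted p = 0.0211).

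Hsf1, the heat shock transcription factor, had signals of 6.36, 6.60, 6.01, 6.53 and 6.73 in controls and 5.95, 6.18, 5.81, 5.71 and 5.84 at 1 week. They were 6.34, 5.88, 6.16, 6.14 and 5.92 at 4 weeks and 6.06, 6.26, 5.88, 6.23 and 6.28 at 8 weeks. All 1-week animals lay below the 4 controls other than replicate 3. Hsf1 fell, with a difference of -0.55 (SE 0.14, adjusted p = 0.00935), at 1 week, while the differences of -0.36 (95% interval -0.66 to -0.06) at 4 weeks and -0.30 (95% interval -0.60 to -0.01) at 8 weeks were not called in limma with all arrays and were called without control replicate 3 (adjusted p = 0.019 and 0.0378). Hspa4, an HSP110-type nucleotide exchange factor, fell, with a difference of -0.53 (SE 0.18, adjusted p = 0.0362) at 1 week, a call that held in 13 of 20 fits that left out 1 array and was lost without control replicates 1, 2, 4 or 5 or 1-week replicates 1, 2 or 4.

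The 4 genes with a heat shock element were not called at any time in the fit of all arrays as deposited, but 2 of them were called under other scalings. Hspa8 (HSC70), the constitutive HSP70, had signals of 11.34, 11.17, 10.65, 11.16 and 11.15 in controls and 10.86, 10.78, 10.90, 10.67 and 10.79 at 1 week. The 4-week animals had 11.04, 10.88, 10.78, 10.98 and 11.06, and the 8-week animals 10.74, 10.83, 10.55, 10.92 and 10.82. Control replicate 3 was the lowest control, and the other 4 lay above every injured animal. Its differences were -0.30 (95% interval -0.56 to -0.03), -0.15 (95% interval -0.41 to 0.12) and -0.32 (95% interval -0.59 to -0.06). Without control replicate 3, Hspa8 fell, with differences of -0.41 (adjusted p = 0.00801) at 1 week and -0.43 (adjusted p = 0.00985) at 8 weeks in limma, and after median centring it was also called lower, with differences of -0.28 (adjusted p = 0.0358) and -0.36 (adjusted p = 0.0156) at these times. Hspe1, the smaller protein of the mitochondrial chaperonin, was called higher after quantile normalization, by 0.52 (limma adjusted p = 0.00205), 0.49 (adjusted p = 0.00558) and 0.39 (adjusted p = 0.024) at 1, 4 and 8 weeks. After median centring it was called higher at 1 week, by 0.46 (adjusted p = 0.0191). The differences of Hspe1 without control replicate 3 were 0.25, 0.24 and 0.11, with adjusted p of 0.135, 0.186 and 0.591. Hsph1 (HSP105) differed by -0.15 (95% interval -0.56 to 0.27), 0.11 (95% interval -0.31 to 0.52) and -0.33 (95% interval -0.74 to 0.09), or -0.29, -0.04 and -0.47 without control replicate 3.

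Hspa1a, the HSP70 gene induced by heat and injury, did not separate the groups. Its signals were 4.77, 6.75, 5.80, 5.36 and 4.81 in controls and 5.12, 5.16, 5.07, 5.10 and 5.59 at 1 week. The 4-week animals had 5.87, 4.20, 5.03, 5.97 and 5.77, and the 8-week animals 5.37, 5.19, 5.27, 5.17 and 5.49. The highest and the lowest of the 20 arrays were control replicate 2 and 4-week replicate 2, and all groups overlapped. Hspa1a lay above the 95th percentile of the intron control probe sets on 0 of 20 arrays and above their median on 20. By the first cut its signal cannot be separated from background. Its near-identical copy Hspa1b can share the probes. Hsp90aa1, the inducible HSP90, differed by -0.37 (95% interval -0.80 to 0.05), 0.09 (95% interval -0.34 to 0.51) and -0.29 (95% interval -0.71 to 0.14), or -0.53, -0.07 and -0.44 without control replicate 3 at 1, 4 and 8 weeks.

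**Figure D3:**
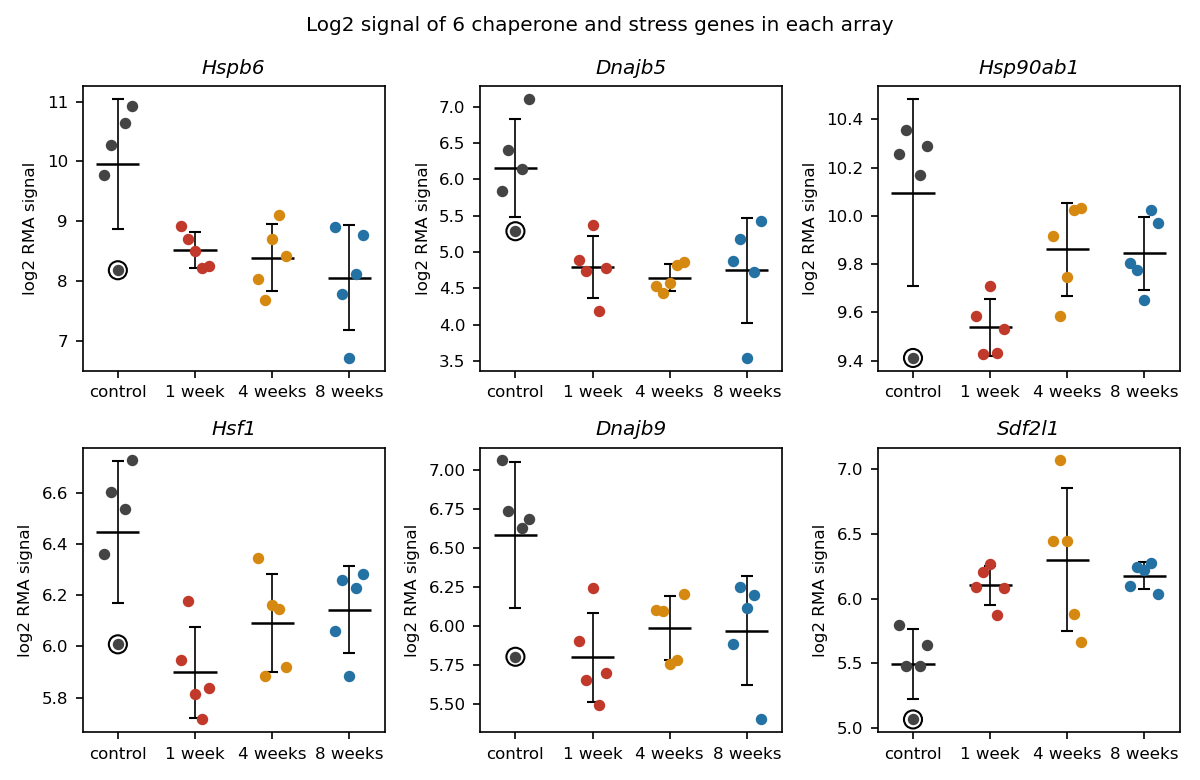
Log2 RMA signal (vertical axis) of Hspb6, Dnajb5, Hsp90ab1, Hsf1, Dnajb9 and Sdf2l1 in each animal of the 4 groups (horizontal axis), with 1 point per array, the group mean as a bar and 1 SD as error bars (n = 5), and control replicate 3 ringed. The ringed array lies with or below the injured animals for Hspb6 and Hsp90ab1, and is the lowest control in all 6 panels.

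Of 13 ER chaperones and folding factors, 1, 1 and 1 were higher and 2, 0 and 1 lower at 1, 4 and 8 weeks. Over all tested probe sets, 11.2%, 7.52% and 6.96% were higher and 10.2%, 5.46% and 4.65% lower. The gene higher at all times was a co-factor of the HSP70 BiP. The 2 lower at 1 week were J-domain proteins, and 1 of them was also lower at 8 weeks. Sdf2l1, which joins the J-domain protein Dnajb11 in a complex that keeps BiP clients soluble, lies at chr11:97376878-97379120. Control signals were 5.79, 5.48, 5.07, 5.48 and 5.64. The 1-week animals had 6.09, 6.21, 6.27, 5.88 and 6.08, the 4-week animals 6.45, 7.07, 6.45, 5.88 and 5.66 and the 8-week animals 6.10, 6.25, 6.22, 6.28 and 6.04. Every 1-week and 8-week animal lay above every control, and at 4 weeks 1 animal lay within the control range. Sdf2l1 rose by 0.61 (SE 0.19, adjusted p = 0.0275), 0.81 (SE 0.19, adjusted p = 0.00918) and 0.69 (SE 0.19, adjusted p = 0.0256) at 1, 4 and 8 weeks in limma. Without control replicate 3 the rise was called at 4 weeks, at 0.70 (adjusted p = 0.0184), while the adjusted p was 0.0628 at 1 week and 0.0506 at 8 weeks. The 1-week and 8-week calls each held in 15 of 20 fits that left out 1 array, and the 4-week call in all 20.

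Dnajb9 (ERdj4), a J-domain protein that represses the stress sensor IRE1 through BiP in cultured mammalian cells, had signals of 7.06, 6.74, 5.80, 6.63 and 6.68 in controls and 5.91, 5.65, 6.24, 5.49 and 5.70 at 1 week. They were 6.11, 6.10, 5.76, 5.78 and 6.21 at 4 weeks and 5.88, 6.25, 6.12, 6.20 and 5.40 at 8 weeks. All injured animals lay below the 4 controls other than replicate 3. Dnajb9 fell, with a difference of -0.78 (SE 0.20, adjusted p = 0.00879) at 1 week in limma, a call that held without any 1 array, and without control replicate 3 it also fell, with differences of -0.79 (adjusted p = 0.00502) at 4 weeks and -0.81 (adjusted p = 0.00486) at 8 weeks. Dnajc10 (ERdj5), a reductase that opens disulfide bonds of proteins bound for degradation, fell, with differences of -0.54 (SE 0.19, adjusted p = 0.0441) at 1 week and -0.61 (SE 0.19, adjusted p = 0.0379) at 8 weeks. At 4 weeks it differed by -0.48 (95% interval -0.87 to -0.09), and was called without control replicate 3, at -0.59 (adjusted p = 0.0336), and after median centring, at -0.52 (adjusted p = 0.0377). Of 20 fits that left out 1 array, 9 kept the 1-week call and 13 the 8-week call. Both calls were lost without control replicates 1, 2 or 4 or 8-week replicates 1, 2 or 3.

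The genes with an ERSE or ERSE-II in the printed promoters were not called at any time in the fit of all arrays as deposited. Hspa5 (BiP), the HSP70 of the ER, had signals of 10.16, 9.76, 8.32, 9.38 and 9.17 in controls and 9.00, 8.86, 9.66, 8.63 and 9.11 at 1 week. The 4-week animals had 9.56, 9.87, 9.13, 9.28 and 9.74, and the 8-week animals 8.74, 9.29, 9.12, 9.74 and 8.96. The controls spanned the range of all injured animals. Its differences were -0.31 (95% interval -0.86 to 0.24), 0.16 (95% interval -0.39 to 0.71) and -0.18 (95% interval -0.73 to 0.37), or -0.56, -0.10 and -0.44 without control replicate 3. Hsp90b1 (GRP94), the HSP90 of the ER, differed by -0.07 (95% interval -0.60 to 0.46), 0.39 (95% interval -0.14 to 0.92) and 0.36 (95% interval -0.17 to 0.89), or -0.26, 0.19 and 0.16 without that array. Hyou1 (GRP170), which exchanges the nucleotide of BiP, differed by 0.14 (95% interval -0.35 to 0.63), 0.47 (95% interval -0.02 to 0.96) and 0.40 (95% interval -0.09 to 0.89), or -0.03, 0.30 and 0.23 without that array. For Dnajc3 (p58IPK), which binds BiP and restrains the stress kinase PERK, the differences were -0.01 (95% interval -0.47 to 0.45), 0.39 (95% interval -0.07 to 0.85) and -0.02 (95% interval -0.48 to 0.44), or -0.15, 0.25 and -0.16 without that array.

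Creld2, an ER stress gene with disulfide isomerase activity, varied most among the ER members. Its signals were 6.81, 6.05, 5.28, 5.41 and 5.61 in controls and 5.64, 5.78, 5.95, 5.68 and 6.23 at 1 week. The 4-week animals had 6.66, 7.64, 6.55, 5.75 and 5.97, and the 8-week animals 6.08, 6.90, 6.43, 7.11 and 5.21. Highest of all was 4-week replicate 2, and the lowest array at 8 weeks lay with the lowest controls. Differences were 0.02 (95% interval -0.69 to 0.74), 0.68 (95% interval -0.04 to 1.40) and 0.51 (95% interval -0.20 to 1.23), or -0.11, 0.54 and 0.38 without control replicate 3. Herpud1, a membrane protein of ER-associated degradation, differed by -0.37 (95% interval -0.82 to 0.07), -0.12 (95% interval -0.56 to 0.33) and -0.01 (95% interval -0.45 to 0.44), or -0.58, -0.33 and -0.22 without that array, where it fell at 1 week (limma adjusted p = 0.027). Dnajb11 (ERdj3) differed by -0.21 (95% interval -0.57 to 0.15), 0.18 (95% interval -0.19 to 0.54) and 0.03 (95% interval -0.33 to 0.39), or -0.33, 0.06 and -0.09 without that array.

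Protein disulfide isomerases form and rearrange disulfide bonds in the ER, and limma called 0 of 6 at any time, with 0, 2 and 1 at an unadjusted p below 0.05 at 1, 4 and 8 weeks (5268, 4339 and 4021 of all 15049 probe sets). Over all probe sets, 11.2%, 7.52% and 6.96% were called higher and 10.2%, 5.46% and 4.65% lower. After quantile normalization Pdia4 was called higher and Pdia2, an isomerase known from pancreas, lower at 4 weeks, with differences of 0.68 (adjusted p = 0.0495) and -0.52 (adjusted p = 0.0332). Pdia3 (ERp57), which acts on glycoproteins, differed by -0.00 (95% interval -0.38 to 0.38), 0.17 (95% interval -0.21 to 0.55) and 0.08 (95% interval -0.30 to 0.46), or -0.20, -0.03 and -0.12 without control replicate 3. Pdia4 (ERp72) differed by 0.20 (95% interval -0.37 to 0.78), 0.62 (95% interval 0.04 to 1.19) and 0.43 (95% interval -0.14 to 1.00), or 0.00, 0.42 and 0.23 without that array. For Pdia6 (P5), which attenuates IRE1 signalling, the values were 0.35 (95% interval -0.17 to 0.87), 0.38 (95% interval -0.14 to 0.90) and 0.21 (95% interval -0.31 to 0.73), or 0.13, 0.15 and -0.01 without that array. The transcription factors of the integrated stress response were not called either. Ddit3 lay above the 95th percentile of the intron control probe sets on 0 of 20 arrays. Atf4 differed by -0.10 (95% interval -0.48 to 0.29), 0.02 (95% interval -0.36 to 0.40) and 0.15 (95% interval -0.23 to 0.53), or -0.30, -0.19 and -0.06 without that array, and Ddit3 (CHOP), its target in prolonged stress, by 0.11 (95% interval -0.22 to 0.44), 0.19 (95% interval -0.14 to 0.53) and 0.19 (95% interval -0.14 to 0.52), or -0.02, 0.06 and 0.06 without that array.

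The ER members differed between animals of the same group. Their median within-group SD was 0.327 log2 units, against 0.272 over all tested probe sets and 0.305 over all members, so their spread was only slightly larger. Of the 19 ER chaperones, folding factors and isomerases, 15 were highest in replicate 1 among the controls (23.0% of all tested probe sets were), 12 in replicate 3 at 1 week (23.1%), 12 in replicate 2 at 4 weeks (24.3%) and 14 in replicate 4 at 8 weeks (26.1%). Control replicate 3 was lowest in its group for 17 of the 19, against 62.1% of all tested probe sets. The mean log2 signal of the 19 was 7.22 in control replicate 1, 6.82 in 1-week replicate 3, 7.14 in 4-week replicate 2 and 7.07 in 8-week replicate 4. The other arrays lay between 6.09 and 6.98, a range that holds the value of 1-week replicate 3. These are descriptions of single animals.

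Plasma and B cell markers were the highest of their group in 3 of those animals, and gland markers in 2. Control replicate 1 had the highest plasma and B cell mean among the controls (4.64) and the highest means of the 20 arrays for the 7 gland markers (9.21) and the 7 anterior pituitary markers (6.75). The 4-week replicate 2 had the highest mean of its group for the 4 plasma and B cell markers (5.77) and the highest of all arrays for the 6 macrophage markers (7.88), and the lowest of all for the gland markers (5.74). The 8-week replicate 4 had the highest mean of all arrays for plasma and B cell markers (6.64) and the highest of its group for gland markers (6.62). In 1-week replicate 3, plasma and B cell markers were the lowest of their group (3.79). Fibroblast matrix markers were highest in other animals, control replicate 4, 1-week replicate 1, 4-week replicate 3 and 8-week replicate 3, and were lowest of their group in 4-week replicate 2. Macrophage markers were highest in control replicate 5, 1-week replicate 5, 4-week replicate 2 and 8-week replicate 3. The part of these cell types in the ER signals was not tested.

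By group, plasma and B cell markers averaged 3.60 to 4.64 in controls, 3.79 to 4.80 at 1 week, 4.10 to 5.77 at 4 weeks and 4.38 to 6.64 at 8 weeks. Of the 4, 0 were called at 1 and 4 weeks (0 and 2 at an unadjusted p below 0.05) and 3 were higher at 8 weeks in limma, among them Cd79b, part of the B cell receptor, by 2.14 (adjusted p = 0.0109), Pou2af1, a B cell co-activator, by 1.47 (adjusted p = 0.0155) and Mzb1, an ER co-chaperone of plasma cells, by 1.59 (adjusted p = 0.0239). Gland markers averaged 6.95 to 9.21 in controls, 6.19 to 7.25 at 1 week, 5.74 to 7.54 at 4 weeks and 5.86 to 6.62 at 8 weeks, and 3, 2 and 2 of 7 were lower, led by the gastric-type lipase Lipf (difference -5.54 (adjusted p = 0.00257) at 8 weeks) and the secretory protein Bpifa2f (difference -4.28 (adjusted p = 0.00311) at 1 week). Over all tested probe sets, 11.2%, 7.52% and 6.96% were higher and 10.2%, 5.46% and 4.65% lower at 1, 4 and 8 weeks.

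**Figure D4:**
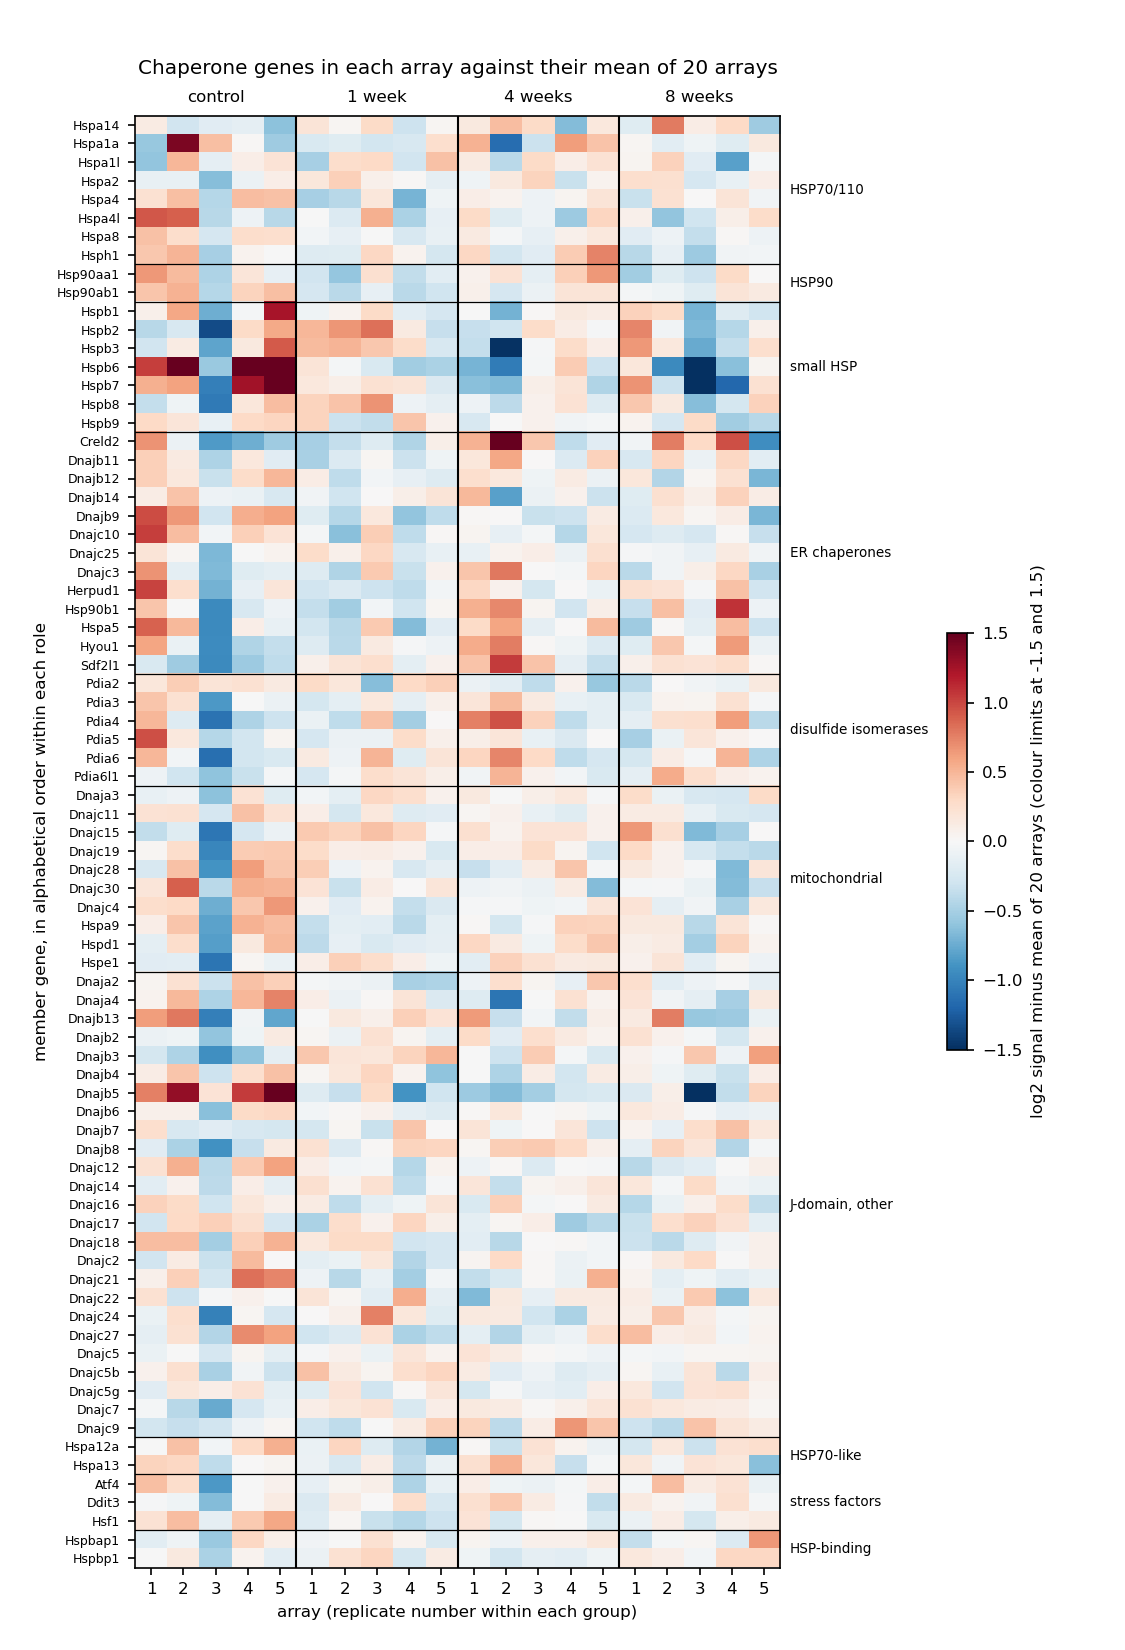
Log2 signal of each of the 78 members (rows, by role) in each of the 20 arrays (columns, by group and replicate number) minus the mean of that gene over the 20 arrays, with red above and blue below the mean. Control replicate 3 is blue through most roles, Hspb6 and Dnajb5 are red in the other controls, and the ER chaperones and isomerases are red in control replicate 1, 4-week replicate 2 and 8-week replicate 4.

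Of 10 mitochondrial chaperones, 1 was higher at 1 week and 0 were called otherwise with all arrays, whereas without control replicate 3, 0 were higher and 4, 1 and 2 lower at 1, 4 and 8 weeks. The shares of all tested probe sets were 11.2% higher at 1 week with all arrays, and 16.9%, 11.3% and 10% lower without control replicate 3. Dnajc15, a J-domain protein of the inner membrane, had signals of 6.44, 6.63, 5.73, 6.56 and 6.72 in controls and 7.20, 7.15, 7.25, 7.13 and 6.80 at 1 week. Each 1-week animal lay above every control, and control replicate 3 was far below the others. It rose by 0.69 (SE 0.21, adjusted p = 0.0211) at 1 week in limma, with an adjusted p of 0.0532 without control replicate 3, and was not called at 4 weeks, 0.55 (95% interval 0.12 to 0.98), or 8 weeks, 0.34 (95% interval -0.09 to 0.77). Hspa9 (mortalin), the HSP70 of the matrix, differed by -0.38 (95% interval -0.80 to 0.04), -0.05 (95% interval -0.47 to 0.36) and -0.12 (95% interval -0.54 to 0.30), or -0.62, -0.29 and -0.36 without control replicate 3, where it fell at 1 week (limma adjusted p = 0.00478). The other lower calls without that array were Dnajc30, a J-domain protein tied to the respiratory chain, with -0.49 (adjusted p = 0.044), -0.68 (adjusted p = 0.0127) and -0.76 (adjusted p = 0.00712) at the 3 times, Dnajc4 with -0.53 (adjusted p = 0.00905) at 1 week and -0.46 (adjusted p = 0.0302) at 8 weeks, and Dnajc11 with -0.35 (adjusted p = 0.043) at 1 week. Dnajc30 lay above the 95th percentile of the intron control probe sets on 0 of 20 arrays. The chaperonin genes that share 1 promoter gave differences of -0.19 (95% interval -0.59 to 0.21), 0.23 (95% interval -0.17 to 0.63) and 0.03 (95% interval -0.37 to 0.43), or -0.40, 0.02 and -0.17 without that array for Hspd1 (HSP60) and 0.45 (95% interval 0.10 to 0.80), 0.44 (95% interval 0.09 to 0.79) and 0.31 (95% interval -0.04 to 0.66) for Hspe1 (HSP10). In control replicate 3, 10 of 10 mitochondrial chaperones were lowest in their group, against 62.1% of all tested probe sets.

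Genes that work with the chaperones but lie outside the symbol rule were read from 7 lists. Of 15 sensors and effectors of the unfolded protein response, 1, 0 and 1 were higher and 5, 3 and 3 lower at 1, 4 and 8 weeks (all tested probe sets: 11.2%, 7.52% and 6.96% higher, 10.2%, 5.46% and 4.65% lower), with median differences of -0.28, -0.13 and 0.02. Asns, the asparagine synthetase that Atf4 drives, fell, with a difference of -1.66 (adjusted p = 0.00217) at 1 week in limma. Ern1, which encodes the sensor IRE1, fell, with a difference of -0.77 (adjusted p = 0.00833), and Bbc3 (PUMA), which promotes apoptosis, rose by 0.80 (adjusted p = 0.00237). Of 18 genes of ER-associated degradation and the translocon, 1 was higher at 1 week and 0 at 4 and 8 weeks (3 and 2 at an unadjusted p below 0.05). That gene was Sec61g, a subunit of the translocon, by 0.66 (adjusted p = 0.0242).

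Of 17 further ER folding factors, 3, 2 and 2 were higher and 2, 0 and 0 lower at 1, 4 and 8 weeks, beside the same 11.2%, 7.52% and 6.96% higher and 10.2%, 5.46% and 4.65% lower over all tested probe sets. Serpinh1 (HSP47), the chaperone of collagen, rose by 1.58 (adjusted p = 8.31e-06), 1.21 (adjusted p = 0.000303) and 0.93 (adjusted p = 0.00245) at 1, 4 and 8 weeks, and Fkbp10 (FKBP65), another helper of collagen folding, by 1.03 (adjusted p = 0.000901) at 1 week. Ero1b, an oxidase that recharges the isomerases, fell, with a difference of -0.78 (adjusted p = 0.0326) at 1 week. Of 7 fibroblast matrix markers, 5, 3 and 1 were higher at the 3 times, beside 11.2%, 7.52% and 6.96% of all tested probe sets. The higher markers included Col1a1, a chain of collagen I, by 1.80 (limma adjusted p = 8.32e-06) at 1 week. The mean of the 7 markers was 8.63 to 9.50 in controls and 9.93 to 10.43 at 1 week.

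Of 17 co-chaperones of HSP90 and HSP70, 3, 3 and 2 were higher and 2, 0 and 1 lower at 1, 4 and 8 weeks. The shares of all tested probe sets beside this and the next 3 counts were 11.2%, 7.52% and 6.96% higher and 10.2%, 5.46% and 4.65% lower. Ahsa1, which activates the ATPase of HSP90, rose by 0.65 (adjusted p = 0.0037), 0.69 (adjusted p = 0.00426) and 0.53 (adjusted p = 0.0237). Unc45a, which helps HSP90 fold myosin, rose by 0.64 (adjusted p = 0.0118) at 8 weeks, and Stip1 (HOP), which links HSP70 to HSP90, fell, with a difference of -0.52 (adjusted p = 0.0122) at 1 week. Of 12 subunits of the cytosolic chaperonin TRiC and prefoldin, which fold actin and tubulin, 2, 3 and 1 were higher and 0 lower, with Cct4 up by 0.37 (adjusted p = 0.0498), 0.57 (adjusted p = 0.00704) and 0.47 (adjusted p = 0.0235). Of 9 genes of mitochondrial quality control, 1 was higher each time, Grpel1, the nucleotide exchange factor of Hspa9, by 0.68 (adjusted p = 0.00475) at 4 weeks. Among 5 alpha crystallins and other heat shock factor genes, Hsf2 fell, with differences of -0.64 (adjusted p = 0.0385), -0.90 (adjusted p = 0.00913) and -0.89 (adjusted p = 0.0108), and Hsbp1, which binds heat shock factor, rose by 0.57 (adjusted p = 0.0171) at 1 week and 0.52 (adjusted p = 0.0442) at 4 weeks, all by limma.

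The remaining marker lists were epithelium, cartilage and macrophages. Of 6 squamous and basal epithelium markers 1, Cdh1 (E-cadherin), fell at each time, and of 4 ciliated epithelium markers 0 were called (1, 1 and 0 at an unadjusted p below 0.05). Of 6 macrophage markers 0, 2 and 1 were higher in limma (1, 5 and 4 at an unadjusted p below 0.05), and of 4 cartilage markers 3, 2 and 3 were higher. The shares of all tested probe sets were 11.2%, 7.52% and 6.96% higher and 10.2%, 5.46% and 4.65% lower at 1, 4 and 8 weeks.

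Between the injured groups, limma called 0 of the 78 members in any of the 3 comparisons, where 0.126% of all probe sets were called for 4 weeks against 1 week, 0.233% for 8 weeks against 1 week and 0% for 8 weeks against 4 weeks. At an unadjusted p below 0.05 there were 6, 0 and 2 members, beside 1367, 1500 and 377 of all probe sets. The members' medians were 0.04, 0.00 and -0.06, so that no course over time could be told among the injured animals with 5 arrays per group.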

How the data were processed

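The authors deposited log2 signals, 1 column per array, made by RMA, which subtracts background and gives 1 value per probe set. The methods give Clariom S as the array, with labelled cDNA and global scaling, and the labels Clariom D, with labelled cRNA and, in the submitters' processing notes, Affymetrix Expression Console. The values, from 0.63 to 12.84, were used as deposited, and raw probe data were not used here. Groups and replicate numbers came from the labels. Gene symbols came from the platform annotation, and 9822 probe sets without a symbol were left out. Array numbers limit the precision, and p-values rest on the spread from animal to animal.

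Limma 3.58.1 (lmFit, eBayes) in R 4.3.3 was fitted to 4 groups of 5 arrays without covariate or filter, with Benjamini-Hochberg adjustment over 15049 probe sets within each of 6 comparisons, and was tested on simulated data. The text names called members (up to 10 per direction and comparison), members that define a role, and up to 3 genes per list. The members, lists and marker genes were chosen with earlier results of these data known. Alternatives were quantile normalization, array weights, median centring, eBayes with trend and robust options, fits of 2 groups, a block for the replicate number, removal of the dimmest 25%, all 23188 non-control probe sets, a minimum log2 difference of 0.5, the hybridization controls as a covariate, and leaving out each array. Within groups, arrays correlated at 0.947 to 0.986. Figures were drawn with matplotlib 3.10.9 in Python 3.11.15.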

Additional observations from a re-analysis of the deposited data

Results flagged for a closer look

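In groups of 5, 1 array stood far from the other 4 (Dixon's test at the 95% level) in 11 of 136 groups examined for 34 named members, where chance gives about 1 in 20. In 6 of these it was control replicate 3, the lowest control, with log2 signals of 10.65 for Hspa8, 9.41 for Hsp90ab1, 7.87 for Hspe1, 6.93 for Hspa4, 5.73 for Dnajc15 and 5.16 for Ddit3. At 1 week, Hspa1a was highest in replicate 5 at 5.59, Dnajc15 lowest in replicate 5 at 6.80 and Dnajc7 lowest in replicate 4 at 7.66. Hspb1 was lowest in 4-week replicate 2 at 6.73, and Hspa9 in 8-week replicate 3 at 8.28.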

How the results depend on the processing

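Counts of members called against control depended on the processing, while 0 members were called between injured groups under every alternative run. With all arrays the counts were 12, 5 and 6 at 1, 4 and 8 weeks. Quantile normalization gave 10 at 4 weeks and 10 at 8 weeks, median centring 9 and 11, array weights 24, 15 and 17 at the 3 times, and the fit of only the groups compared 2 at 4 weeks. With the hybridization controls as a covariate, 0 were called at each time, and the difference of Dnajb8 at 4 weeks turned to -0.082; this covariate does not overlap between control and injured arrays. Leaving out 1 array gave 7 (without control replicate 4) to 20 (without control replicate 3) at 1 week, 3 (without control replicates 2 or 4 or 4-week replicates 2 or 4) to 13 (without control replicate 3) at 4 weeks, and 3 (without control replicate 2 or 8-week replicates 2 or 3) to 14 (without control replicate 3) at 8 weeks. Over all probe sets, higher and lower calls were 1681 and 1528, 1131 and 821, and 1048 and 700 at the 3 times, against 1428 and 2538, 902 and 1697, and 848 and 1508 without control replicate 3, and with array weights 2126 and 3088, 1335 and 2048, and 1489 and 2130. Median centring gave 1104 and 1348 at 4 weeks and 1026 and 1180 at 8 weeks. The cause was not tested.

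The 23 calls of named members were repeated 664 times, of which 558 kept direction and call, 105 lost the call and 1 reversed. Apart from the covariate, the calls of Dnajb5 at all times, Hspb6 at 4 and 8 weeks, Dnajb3 at 1 and 8 weeks, and Dnajb9, Hsf1 and Hsp90ab1 at 1 week were made under each alternative that tested them. Arrays of different groups with the same replicate number deviated together in 6 of 30 pairs (correlation of deviations over 0.1, median -0.05, highest 0.32). For different numbers the median was 0.01. These values cannot show whether the replicate numbers pair the animals. The replicate block gave 9, 3 and 5 members at 1, 4 and 8 weeks.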
